A study of Mus musculus with 8 samples.

Results

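The circadian clock genes of mouse kidney were examined in whole-kidney RNA-Seq of SIK mutant mice and their controls. The group held 10 genes, taken by symbol from the 55401 genes that each file lists: 3 activators (*Arntl*, *Clock* and *Npas2*), 5 repressors (*Per1*, *Per2*, *Per3*, *Cry1* and *Nr1d1*) and 2 output genes (*Dbp* and *Ciart*). All 10 were among the 14326 genes that passed the filter on low counts. The 4 control kidneys came from mice labelled SIK1f/f;SIK2f/f,SIK3f/f, in which the genes for the salt-inducible kinases are flanked by loxP sites and intact. The 4 SIK mutant kidneys carried the same floxed alleles and Six2-Cre, which is active in nephron progenitors and so deletes in the nephron epithelium descended from them, not in stroma, vessels or blood cells. For *Sik1* the labels give both alleles as floxed in mutants, whereas the study's text describes surviving mutants with 1 floxed *Sik1* allele, so the group is called SIK mutant here. The controls were Cre-negative littermates. Strain, age, sex and the hour at which each kidney was taken are not given in the labels for these samples.

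The clock is a feedback loop that most cells run for themselves. BMAL1, the product of *Arntl*, pairs with CLOCK or with its relative NPAS2 and drives genes that hold an E-box in their promoters, among them the *Per* and *Cry* genes, *Nr1d1*, *Dbp* and *Ciart*. PER and CRY proteins return to the nucleus and block that pair, while REV-ERB-alpha, the product of *Nr1d1*, represses *Arntl*, *Npas2* and *Clock* through RORE sequences. Transcripts of *Arntl* and *Npas2* thus peak roughly opposite in the day to most of the repressor transcripts. *Clock* is nearly constant, and *Cry1* peaks later than the *Per* genes. In the kidney the clock is known for daily rhythms in tubular salt and water transport. The salt-inducible kinases act below cAMP and protein kinase A on CRTC coactivators of CREB, a factor that also acts on *Per1*, and the comparison of genotypes asks whether the loop's transcripts differed in kidneys with these kinases mutated in the nephron.

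Promoters of the clock genes carry the short sequences that tie the loop together, and those with the clearest matches are shown. The windows run from 250 bases before to 50 bases after a RefSeq transcript start (GRCm38.p6), and 9 of the 10 genes had one or more windows, 13 in all. Capitals mark matches, found on both strands, to the E-box CACGTG, the E-prime box CACGTT, the D-box TTANGTAA bound by DBP and its relatives, or the RORE core TAGGTCA. The window of *Arntl* (chr7:113207261-113207560, + strand) held a RORE core 30 bases after the start. That of *Ciart* (chr3:95882179-95882478, - strand) held 3 E-boxes, that of *Per3* (chr4:151044616-151044915, - strand) 2 D-boxes, that of *Cry1* (chr10:85185005-85185304, - strand) an E-box and an E-prime box, and that of *Per1* (chr11:69098699-69098998, + strand) an E-box.
Arntl: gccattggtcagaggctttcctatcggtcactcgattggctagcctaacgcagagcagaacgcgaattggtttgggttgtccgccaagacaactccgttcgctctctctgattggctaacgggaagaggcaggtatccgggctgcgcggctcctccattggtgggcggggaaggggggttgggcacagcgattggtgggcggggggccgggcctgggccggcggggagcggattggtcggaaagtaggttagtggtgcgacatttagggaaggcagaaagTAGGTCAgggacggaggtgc
Ciart: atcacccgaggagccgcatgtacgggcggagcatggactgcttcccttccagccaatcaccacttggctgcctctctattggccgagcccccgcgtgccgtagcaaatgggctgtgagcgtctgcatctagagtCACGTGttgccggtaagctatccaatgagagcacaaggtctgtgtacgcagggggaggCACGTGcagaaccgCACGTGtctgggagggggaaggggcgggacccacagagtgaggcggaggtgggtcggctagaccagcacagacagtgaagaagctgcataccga
Per3: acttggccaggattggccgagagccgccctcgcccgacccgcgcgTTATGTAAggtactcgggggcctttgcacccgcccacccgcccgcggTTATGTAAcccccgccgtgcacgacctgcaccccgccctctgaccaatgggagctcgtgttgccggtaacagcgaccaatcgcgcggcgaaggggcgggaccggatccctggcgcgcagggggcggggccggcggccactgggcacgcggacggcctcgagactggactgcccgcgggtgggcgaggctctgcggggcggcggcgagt
Cry1: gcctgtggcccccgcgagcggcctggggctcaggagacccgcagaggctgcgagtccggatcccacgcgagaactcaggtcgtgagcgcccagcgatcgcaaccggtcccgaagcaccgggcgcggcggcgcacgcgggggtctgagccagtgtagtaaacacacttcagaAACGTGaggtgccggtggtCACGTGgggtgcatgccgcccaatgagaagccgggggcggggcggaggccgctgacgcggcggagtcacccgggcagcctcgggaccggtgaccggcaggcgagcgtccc
Per1: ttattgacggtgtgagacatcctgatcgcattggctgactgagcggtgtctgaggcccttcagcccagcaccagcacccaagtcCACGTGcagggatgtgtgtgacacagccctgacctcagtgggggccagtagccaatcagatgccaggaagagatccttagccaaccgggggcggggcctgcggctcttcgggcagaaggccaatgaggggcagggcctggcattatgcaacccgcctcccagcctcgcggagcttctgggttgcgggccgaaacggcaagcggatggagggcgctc
Among all 32851 RefSeq windows of this length in the mouse, 7.15% held an E-box, 4.68% an E-prime box, 2.32% a D-box and 2.61% a RORE core, so single matches are common. *Nr1d1* had an E-prime box 28 bases before its start, and the windows of *Clock*, *Npas2* and *Dbp* held none of these letters. No window of a clock gene held the full CREB site TGACGTCA, which was present in 1.79% of all windows. A match is a description of the letters, not of binding, and sites outside the windows were not searched.

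Levels are given in CPM, read counts scaled to library size with TMM factors. The total of expected counts was 10798908 to 10925100 in control libraries and 10179648 to 10875315 in mutant libraries, and a count of 3 corresponded to 0.275 to 0.295 CPM. *Sik3* was at 62.9 ± 3.79 CPM in controls and 39.5 ± 4.10 CPM in mutants (mean ± SD, n = 4 each), with no overlap. *Sik2* was at 9.14 ± 0.841 and 6.72 ± 2.07 CPM, with overlap. *Sik1* was higher in mutants, at 40.8 ± 2.84 and 50.6 ± 4.85 CPM, with no overlap (36.8 to 43.1 against 43.4 to 54.1 CPM). The cause of that rise was not tested. None of the 3 passed the adjusted threshold in edgeR (FDR = 0.0697 for *Sik3*, 0.794 for *Sik2* and 0.601 for *Sik1*), and reads outside deleted exons or from cells without Cre still count. The summed level of 4 proximal tubule markers was 6629 to 9193 CPM in controls and 6092 to 7336 CPM in mutants, and all 4 had lower means in mutants. Of these, *Slc5a2*, the glucose transporter SGLT2, was at 504 ± 48.6 CPM in controls and 318 ± 2.64 CPM in mutants, with no overlap (edgeR FDR = 0.0697, DESeq2 FDR = 9.4e-10). *Aqp2*, a collecting duct water channel, was at 272 ± 98.8 and 418 ± 118 CPM, with overlap (edgeR FDR = 0.781). Controls 3 and 4 had *Xist* at 260 and 298 CPM and no more than 0.0438 CPM of Y-linked transcripts on average. The other 6 kidneys had Y-linked reads and no more than 0.494 CPM of *Xist*. By these transcripts controls 3 and 4 read as female and the other 6 kidneys, with all mutants among them, as male. Sex was thus not balanced between the genotypes. The summed level of 7 adipocyte markers was 22.3, 29.9, 219 and 67.1 CPM in controls 1 to 4 and 166 to 262 CPM in mutants, all 7 were higher in mutants on average, and *Adipoq*, *Plin1*, *Cidec*, *Cfd*, *Retn* and *Lep* were at 0 in control 1. The part of these differences in the results below was not tested beyond the values given.

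The activators ran together except for *Clock*. *Arntl* (ENSMUSG00000055116.8, chr7:113207465-113314126 in GENCODE M21 on mm10) was at 15.4, 21.8, 11.4 and 16.5 CPM in controls 1 to 4 and at 15.8, 22.6, 23.1 and 8.76 CPM in mutants 1 to 4. The highest and the lowest kidney were both mutants, and the groups overlapped over the whole control range. *Npas2* (ENSMUSG00000026077.15, chr1:39193731-39363236), the alternative partner of BMAL1, was at 13.0, 25.3, 6.25 and 13.8 CPM in controls and 15.1, 22.3, 31.9 and 8.66 CPM in mutants, with the same 3 kidneys at the top and the same 2 at the bottom as *Arntl*. *Clock* (ENSMUSG00000029238.11, chr5:76209868-76304792), the constitutive partner, was at 40.5, 39.8, 40.9 and 40.1 CPM in controls and 40.2, 46.8, 53.6 and 40.9 CPM in mutants. The controls lay within 1.03-fold of each other for *Clock*, while for *Npas2* the highest control was 4.05 times the lowest.

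**Figure D1:**
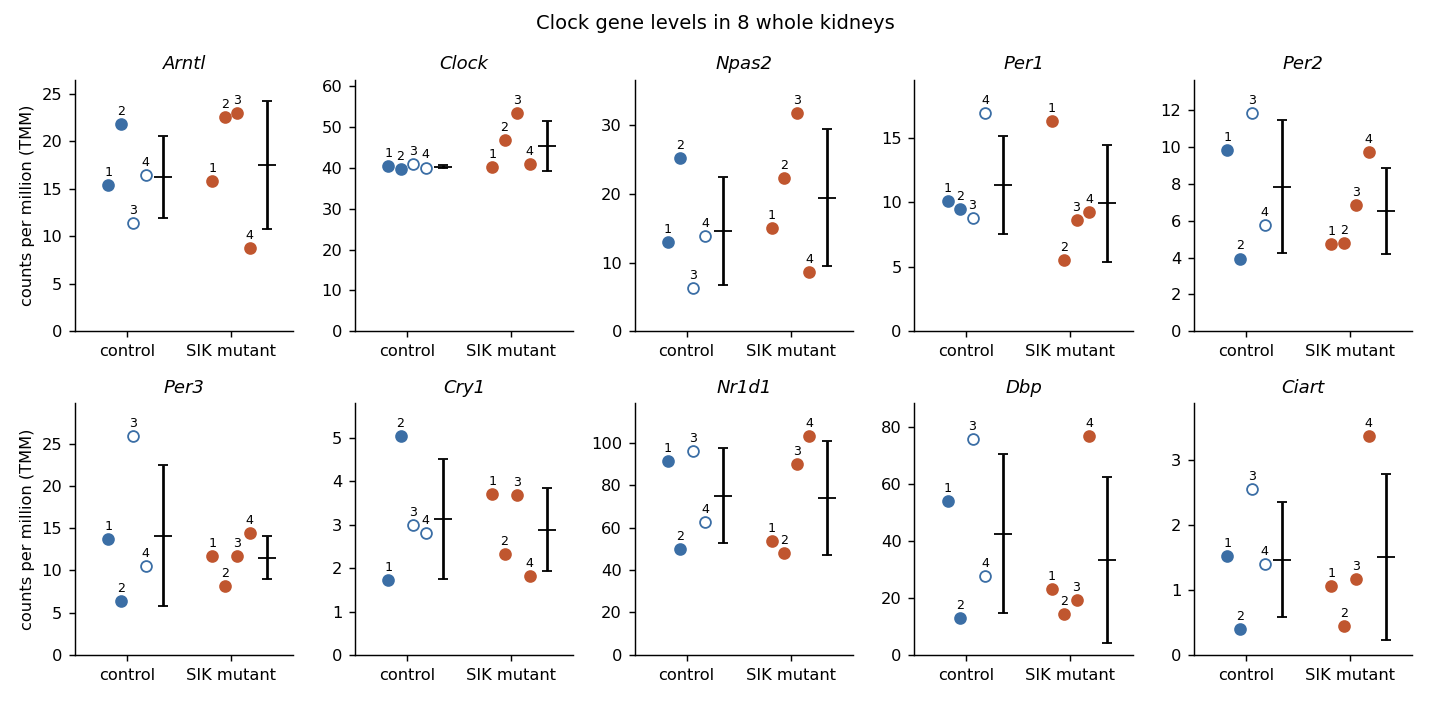
Levels of the 10 clock genes in CPM on linear axes starting at 0, with a point for each kidney numbered by replicate (blue, control; orange, SIK mutant; open points, the 2 kidneys without Y-linked reads) and the mean with its SD in black. The groups overlap for every gene, and control 3 and mutant 4 are the highest kidneys for *Dbp*, *Ciart* and *Nr1d1*.

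Among the repressors, *Per2*, *Per3* and *Nr1d1* were high in control 3 and mutant 4, where *Arntl* was lowest. *Nr1d1* (ENSMUSG00000020889.11, chr11:98767932-98775333), the repressor that acts on the activator genes, was at 91.4, 49.99, 96.0 and 62.6 CPM in controls and 53.8, 48.2, 90.2 and 103 CPM in mutants. Mutant 4 and control 3 had the most *Nr1d1*, but mutant 3 was high for both genes. *Per3* (ENSMUSG00000028957.12, chr4:151003652-151044665), whose promoter holds the D-boxes shown above, was at 13.7, 6.42, 25.9 and 10.5 CPM in controls and 11.7, 8.20, 11.7 and 14.4 CPM in mutants. *Per2* (ENSMUSG00000055866.9, chr1:91415982-91459324), a core repressor, was at 9.84, 3.95, 11.9 and 5.78 CPM in controls and 4.77, 4.82, 6.88 and 9.72 CPM in mutants. Control 3 was the highest kidney for both of these *Per* genes and control 2 the lowest.

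*Per1* and *Cry1* followed other orders. *Per1* (ENSMUSG00000020893.17, chr11:69095217-69109960), a repressor that is also induced acutely by glucocorticoid and cAMP, was at 10.1, 9.48, 8.81 and 17.0 CPM in controls and 16.3, 5.53, 8.62 and 9.24 CPM in mutants. Control 4 and mutant 1, which were in the middle of the range for *Arntl*, had the most *Per1*, and the other 6 kidneys lay between 5.53 and 10.1 CPM. *Cry1* (ENSMUSG00000020038.10, chr10:85131700-85185064), a repressor that peaks later than the *Per* genes, was at 1.73, 5.04, 2.99 and 2.80 CPM in controls and 3.71, 2.32, 3.68 and 1.83 CPM in mutants. It was highest in control 2, the kidney lowest for *Per2*, *Per3*, *Dbp* and *Ciart*.

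The outputs had the widest range. *Dbp* (ENSMUSG00000059824.12, chr7:45705088-45710203), a D-box binding activator read as a direct output of the loop, was at 54.1, 12.8, 75.7 and 27.6 CPM in controls and 22.9, 14.4, 19.1 and 76.7 CPM in mutants. Mutant 4 and control 3 stood at almost the same high level, and control 2 and mutant 2 at almost the same low one. *Ciart* (ENSMUSG00000038550.10, chr3:95878503-95882251), a BMAL1-binding repressor with the 3 promoter E-boxes shown above, was at 1.52, 0.395, 2.55 and 1.40 CPM in controls and 1.06, 0.446, 1.16 and 3.37 CPM in mutants. The order of kidneys for *Ciart* was that for *Dbp* with mutants 1 and 3 exchanged. *Ciart* rested on 4 to 35 counts per kidney, against 130 to 860 for *Dbp*.

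Compared per length, *Nr1d1* and *Dbp* were the most abundant of the 10 transcripts, and *Per2* and *Cry1* the least. The mean level over the 8 kidneys in TPM, the deposited unit that corrects for transcript length, was 31.8 ± 9.70 (SD, n = 8) for *Nr1d1*, 25.6 ± 18.2 for *Dbp*, 7.18 ± 2.40 for *Arntl*, 5.28 ± 2.96 for *Npas2* and 4.85 ± 0.872 for *Clock*. It was 3.47 ± 1.73 for *Per3*, 2.66 ± 1.04 for *Per1*, 1.54 ± 1.18 for *Ciart*, 1.34 ± 0.528 for *Per2* and 1.25 ± 0.532 for *Cry1*. The ranges of every pair of neighbours in this order overlapped, and only *Arntl* was above its neighbour, *Npas2*, in all 8 kidneys. *Nr1d1* shares 263 of its 3077 exonic bases with *Thra* and *Dbp* 539 of 2993 with *Sphk2*, both on the opposite strand, and *Arntl* shares 33 of 7523 with *Gm45355*. The use of strand is not given in the sources used here, so how reads from those stretches were assigned is not known from them. RSEM's posterior SD of the count was 0 for all 10 genes in every kidney, so RSEM itself reported no uncertainty in assigning their reads.

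No clock gene differed between genotypes beyond the spread between kidneys. At an FDR under 0.05, 0 of the 10 passed in edgeR's quasi-likelihood test, against 0 of the 14326 genes tested (0%), and 0 of the 10 passed in DESeq2, against 71 of 18344 genes (0.387%). At an unadjusted p under 0.05 the counts were 0 of 10 and 911 of 14326 (6.36%), and 0 of the 10 had groups that did not overlap, against 578 genes (4.03%). The adjusted p of the 10 ran from 0.822 to 0.997, and the exact permutation p of the difference in CPM from 0.114 to 0.971 (two-sided, n = 4 against 4). The median log2 fold change (mutant over control) was -0.07 for the 10 genes and -0.0038 for all genes tested. In bulk tissue, fewer cells of a type and less RNA per cell cannot be told apart.

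The 3 activators had positive log2 fold changes and the 5 repressors negative ones, none of them past the test. For *Arntl* the value was 0.11 ± 0.296 (SE), with a 95% interval from -0.55 to 0.77. *Clock* had the smallest error of the 10 at 0.17 ± 0.1005, and its interval of -0.05 to 0.40 excludes a change of 2-fold in either direction. *Npas2* was at 0.42 ± 0.447, with an interval of -0.58 to 1.42 that holds both no change and more than a doubling. For the repressors the values were -0.19 ± 0.325 for *Per1*, -0.27 ± 0.359 for *Per2*, -0.30 ± 0.368 for *Per3*, -0.12 ± 0.353 for *Cry1* and -0.02 ± 0.283 for *Nr1d1*. The intervals of *Arntl*, *Per1*, *Cry1* and *Nr1d1* also exclude a change of 2-fold in either direction. Those of *Per2* and *Per3* do not, with lower ends at -1.07 and -1.13. *Dbp* was at -0.36 ± 0.616, with an interval from -1.74 to 1.02, and *Ciart* at 0.02 ± 0.631, with an interval from -1.40 to 1.43. All 10 intervals include 0, and a p that misses the threshold does not show that the genotypes were alike.

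**Figure D2:**
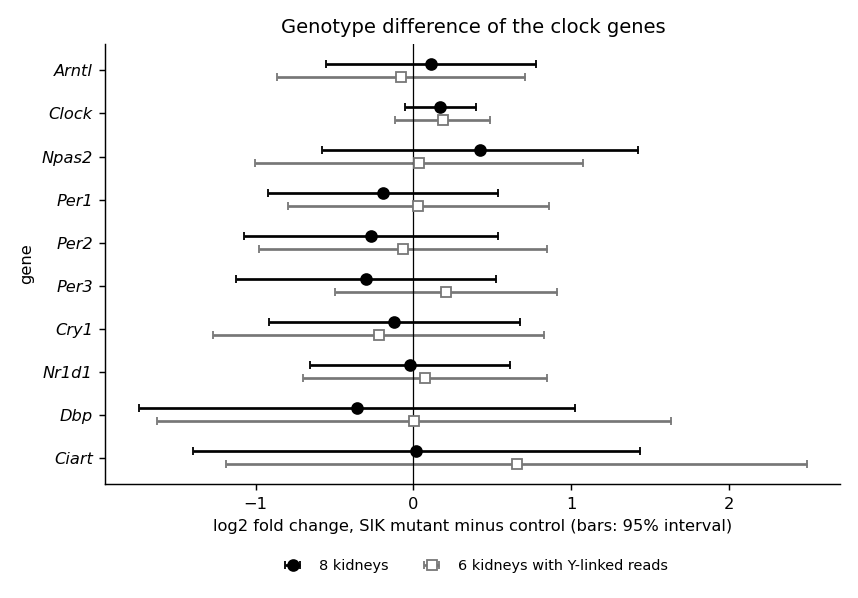
Log2 fold change of each clock gene, SIK mutant minus control, with 95% intervals from edgeR, for 8 kidneys (filled circles) and for the 6 kidneys with Y-linked reads (open squares). Every interval crosses 0, the narrowest being that of *Clock* and the widest those of *Dbp* and *Ciart*.

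With controls 3 and 4 set aside, which leaves the 6 libraries that had Y-linked reads, 0 of the 10 genes passed an FDR under 0.05 in edgeR, against 21 of 14719 genes (0.143%), and 0 of 10 passed an unadjusted p under 0.05, against 1640 genes (11.1%). There *Arntl* was at -0.08 ± 0.344, *Npas2* at 0.03 ± 0.455, *Per3* at 0.20 ± 0.309 and *Dbp* at 0.00 ± 0.714 on the log2 scale. The signs of *Arntl*, *Per1*, *Per3*, *Nr1d1* and *Dbp* were then opposite to those over 8 kidneys. Over the 20 alternatives tried, 1 of the 10, *Clock*, kept its direction throughout, and no alternative put a clock gene past the threshold, the lowest adjusted p being 0.339 for *Npas2* and *Per3*.

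The clock genes varied widely among kidneys of the same genotype, and 9 of the 10 had a spread above the median gene. The SD of log2 CPM within groups had a median of 0.589 over the 10 genes, against 0.215 over all genes tested, whose 90th percentile was 0.579. For *Dbp* it was 1.10 and for *Ciart* 1.11, at the 97.9th and 98.0th percentiles. *Npas2* stood at the 95.9th percentile, *Per3* at the 92.0th, *Per2* at the 91.3rd, *Cry1* at the 89.4th, *Per1* at the 88.5th, *Arntl* at the 88.0th and *Nr1d1* at the 86.0th. *Clock* was the exception at 0.137, the 23.0th percentile. From the lowest to the highest kidney, levels ranged over 8.52-fold for *Ciart*, 5.97-fold for *Dbp* and 5.10-fold for *Npas2*, but 1.35-fold for *Clock*. Low counts add counting error to the SD, most of all for *Ciart*.

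**Figure D3:**
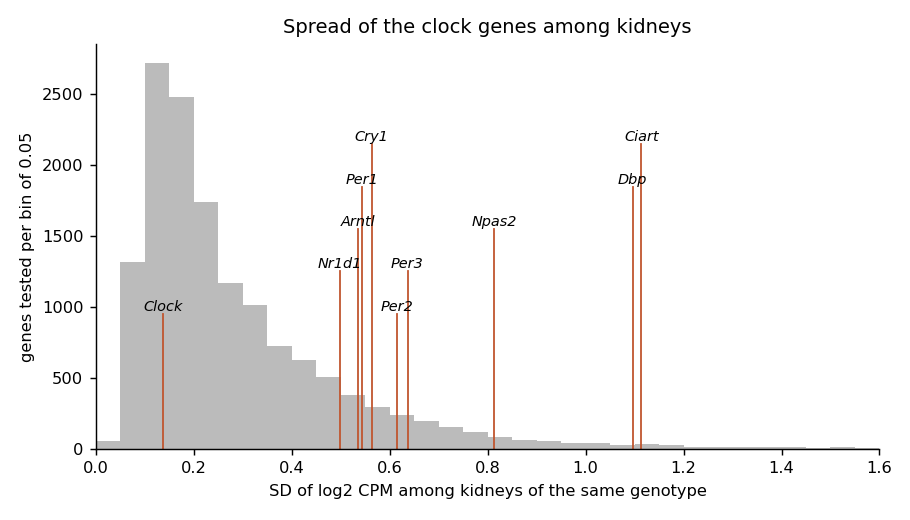
Histogram of the SD of log2 CPM among kidneys of the same genotype for all genes tested (grey, bins of 0.05, axis ending at 1.6), with the clock genes as vertical lines whose heights carry no value. *Clock* lies at 0.137, below the median of all genes, and *Dbp* and *Ciart* lie at 1.10 and 1.11.

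To order the kidneys by the loop's transcripts, the log2 ratio of the geometric mean TPM of the 3 activators to that of the 5 repressors was taken. The ratio cannot be turned into an hour of collection. The log2 ratio was 0.457, 1.26, -0.246 and 0.614 in controls 1 to 4 and 0.658, 1.78, 1.27 and -0.0053 in mutants 1 to 4. The kidneys ran from mutant 2 through mutant 3, control 2, mutant 1, control 4, control 1 and mutant 4 to control 3, a span of 4.08-fold in which both genotypes stood near both ends. The group means were 0.520 ± 0.617 in controls and 0.927 ± 0.773 in mutants, a difference of 0.407 that is smaller than the SD of either group. Left out in turn, single kidneys moved that difference between 0.121 (without mutant 2) and 0.717 (without mutant 4), and in the 6 kidneys with Y-linked reads it was 0.0707. Other ratios ordered the kidneys much alike, with a Spearman rho to the first of 0.905 for *Arntl* over *Nr1d1* or *Arntl* over *Dbp* and 0.976 without *Cry1*, though these ratios share genes with it. Of the kidneys without Y-linked reads, control 3 stood at the foot of the order and control 4 in its middle. Among mutants, the summed adipocyte markers rose as the ratio fell, at 166, 187, 211 and 262 CPM in mutants 2, 3, 1 and 4. In controls 2, 4, 1 and 3, also in falling order of the ratio, the sum was 29.9, 67.1, 22.3 and 219 CPM. The control with the lowest ratio thus had the highest sum of the controls. The cause of this was not tested.

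**Figure D4:**
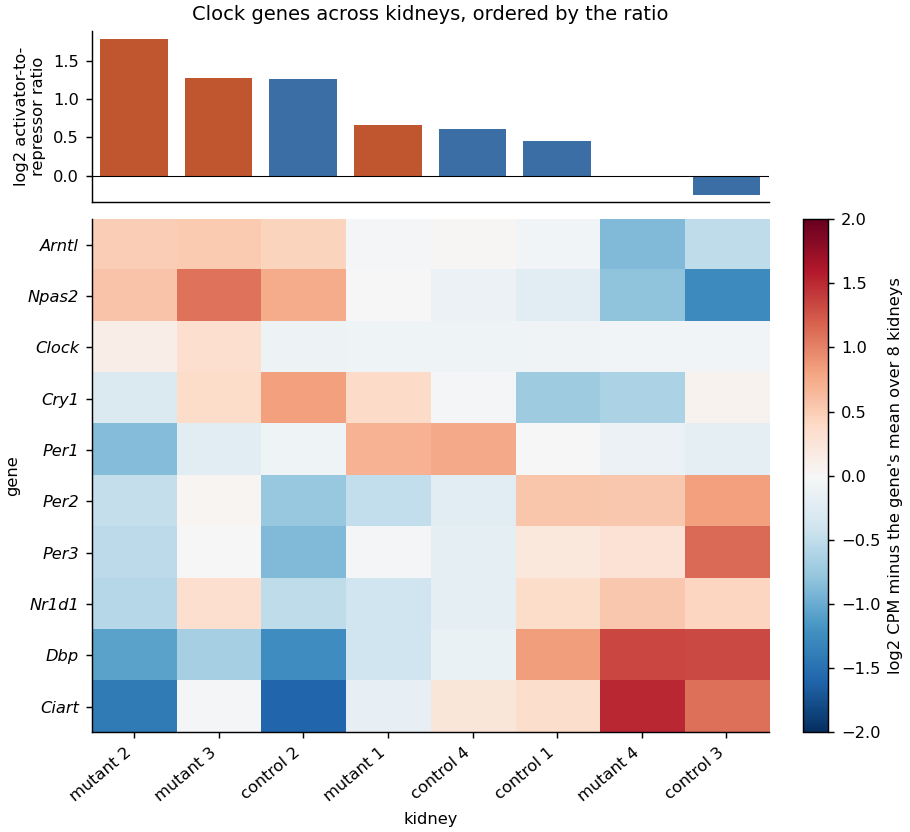
Top, the log2 activator-to-repressor ratio of each kidney (blue, control; orange, SIK mutant; mutant 4 is at -0.0053, too small to show). Below, log2 CPM of each clock gene minus its mean over the 8 kidneys, on a colour scale from -2 to 2, with kidneys in the order of the ratio. *Arntl* and *Npas2* are red in mutant 2, mutant 3 and control 2 on the left, where *Dbp* is blue. *Ciart* is blue in mutant 2 and control 2 but close to its mean in mutant 3. In mutant 4 and control 3 on the right, *Arntl* and *Npas2* are blue and *Dbp* and *Ciart* red.

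Across the 8 kidneys, *Arntl* ran with its partner gene and against the outputs. Its Pearson correlation in log2 CPM was 0.916 with *Npas2* (Spearman 0.929), -0.913 with *Dbp* (-0.881) and -0.878 with *Ciart* (-0.786). Without mutants 3 and 4, the kidneys farthest from the median of *Arntl*, these Pearson values were 0.976, -0.928 and -0.966. With the group means removed they were 0.942, -0.923 and -0.878, and in the 6 kidneys with Y-linked reads 0.950, -0.898 and -0.858. For the repressors the Pearson values were -0.721 for *Per2*, -0.718 for *Per3*, -0.638 for *Nr1d1*, -0.200 for *Per1* and 0.523 for *Cry1*. *Clock* had 0.527 but a Spearman rho of 0.167. These are 9 correlations over 8 libraries, each pair of values coming from the same library and scaling, and they are given as a description.

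**Figure D5:**
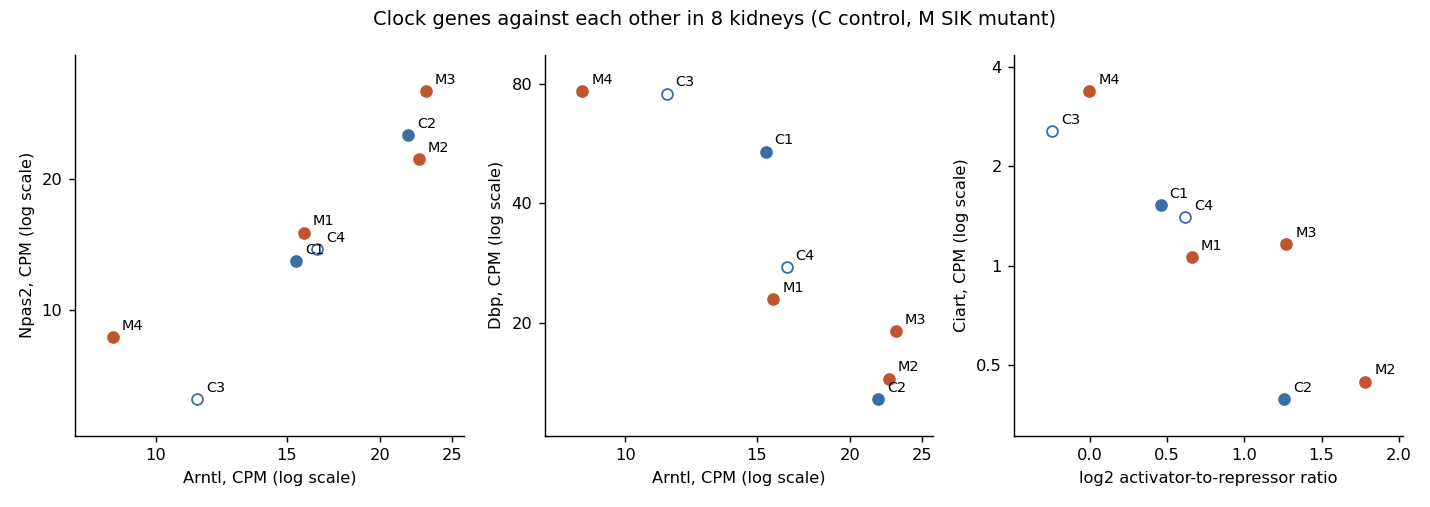
Left and middle, *Npas2* and *Dbp* against *Arntl*, both axes in CPM on log scales; right, *Ciart* in CPM on a log scale against the log2 activator-to-repressor ratio, which does not use it. Each point is a kidney (C, control; M, SIK mutant; open points, no Y-linked reads), and control 3 and mutant 4 lie together at high *Dbp* and high *Ciart*, with control 2 and mutant 2 together at the opposite end.

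The outputs were not used in the ratio. They come from the same libraries and share E-box drivers with its repressors, so their change along it is not independent of it. In an edgeR fit with genotype and the ratio as terms, a choice made after the data had been seen, the slope per unit of log2 ratio was -1.45 ± 0.204 (SE) for *Dbp* and -1.48 ± 0.262 for *Ciart*. By p these slopes ranked 1 and 8 among the 14326 genes. *Arntl* and *Npas2*, which are part of the ratio, ranked 2 and 7. No gene passed an FDR under 0.05 (0%), the lowest adjusted p being 0.739, and 622 genes had an unadjusted p under 0.05 (4.34%). With the ratio as a covariate, genotype calls stayed at 0 in edgeR, with 675 genes at an unadjusted p under 0.05, and the log2 fold change of *Dbp* moved to 0.18.

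Beyond the 10, a list of 23 other clock genes was read in the same fit, of which 21 were tested (*Arntl2* and *Rorb* did not pass the filter). At an FDR under 0.05, 0 of the 21 passed in edgeR, and at an unadjusted p under 0.05 there was 1 higher, against 2.76% of all genes, and 1 lower, against 3.59%. The higher one was *Rora*, an activator that competes with REV-ERB for RORE sequences, at 36.8 ± 2.99 CPM in controls and 43.9 ± 6.18 CPM in mutants (edgeR FDR = 0.779). The lower one was *Bhlhe41*, an E-box repressor, at 2.23, 1.38, 3.61 and 2.36 CPM in controls and 0.530, 1.07, 0.581 and 1.92 CPM in mutants (edgeR FDR = 0.715). For both genes the groups overlapped. Neither kept an unadjusted p under 0.05 in the 6 kidneys with Y-linked reads, where *Rora* was at 0.17 (edgeR FDR = 0.663) and *Bhlhe41* at -0.81 (edgeR FDR = 0.610) on the log2 scale, or with the Y-linked covariate, at 0.16 and -0.79. The p of *Rora* also rose above 0.05 without any of mutants 2, 3 and 4 or controls 2, 3 and 4, and that of *Bhlhe41* without mutant 1, mutant 3 or control 3. Both genes kept their sign in every alternative that tested them, *Rora* at 0.16 to 0.48 and *Bhlhe41* at -1.71 to -0.30. Neither passed the adjusted threshold in any, the lowest FDR being 0.188 for *Rora* and 0.140 for *Bhlhe41* (edgeR with the adipocyte covariate). *Btrc*, a ubiquitin ligase that targets PER proteins, was the only one of the 21 whose groups did not overlap, at 17.4 to 19.3 CPM in controls and 15.4 to 17.2 CPM in mutants (edgeR FDR = 0.803), a share of the list near the 4.03% of all genes tested.

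Along the activator-to-repressor ratio, 4 of the 21 had an unadjusted p under 0.05, where the background was 4.34%. The ratio is made of clock genes from the same libraries, and the fit was chosen after the data had been seen. A share of clock genes above the background along it is therefore not independent of how the ratio was made, and is a description only. *Nr1d2*, the relative of *Nr1d1*, had a slope of -0.32 ± 0.09998 per unit of log2 ratio and *Bhlhe41* -0.68 ± 0.296. None of the 4 passed the adjusted threshold. *Nr1d2* was at 55.2, 34.9, 54.9 and 43.7 CPM in controls and 41.3, 42.6, 44.8 and 60.1 CPM in mutants, highest in mutant 4 and lowest in control 2 as *Dbp* was. The median SD of log2 CPM within groups was 0.282 over the 21 genes, nearer to the 0.215 of all genes than to the 0.589 of the clock genes above, and 0.160 over the 9 kinases and ubiquitin ligases.

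Among 14098 other tested genes with a mean of at least 1 CPM, those closest to *Arntl* over the 8 kidneys by Pearson correlation of log2 CPM were *Zbtb9* (0.977), *Senp5* (0.960), *Serinc4* (0.955), *Sympk* (0.945) and *Comtd1* (0.934). The most opposed were *Itpa* (-0.980), *Rasgrp4* (-0.944), *Eno1b* (-0.943), *Ptdss2* (-0.931) and *Naca* (-0.931). *Npas2* at 0.916 and *Dbp* at -0.913 were not in this ranking, and every gene it named had a stronger correlation with *Arntl* than either. Correlations of that size with *Arntl* were thus not particular to clock genes. The ranked genes were picked from many over 8 libraries and are given as a description. *Zbtb9*, a zinc finger gene, was at 2.98 to 6.42 CPM, and *Itpa*, an inosine triphosphatase, at 30.5 to 41.2 CPM.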

How the data were processed

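RNA-Seq of 8 whole kidneys, 4 control and 4 SIK mutant by their titles and genotypes, was analysed. Per the submitters' processing notes, FastQC, STAR 2.7.2b, RSEM 1.3.0 and DESeq2 were used with the mm10 build, on BGISEQ500 reads. As deposited, expected counts are estimates of reads per gene by RSEM, without normalisation, and the deposited TPM values are corrected for gene length and library total. Effective lengths and posterior SDs of the counts, other values deposited by the authors, were read as checks. Replicates were not pooled. Of 55401 genes, 55141 matched GENCODE M21 without version numbers.

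Expected counts were rounded and tested with edgeR 4.0.16 in R 4.3.3 (quasi-likelihood F test, TMM, filterByExpr, Benjamini-Hochberg over 14326 genes). For single genes the exact permutation test (two-sided) used the 70 possible assignments of kidneys and cannot give a p under 0.0286. Scripts were tested on simulated data. Alternatives were RLE and upper-quartile factors, DESeq2 1.42.0, limma 3.58.1 (limma-trend on log2(TPM + 1) and log2(TPM + 0.1)), a replicate block, dropping the filter or asking for a mean count of 50, covariates, the 6 kidneys with Y-linked reads (mean of 4 genes at least 1 CPM), leaving out each kidney, and, added after seeing the data, the activator-to-repressor ratio as covariate.

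The members and lists were chosen with earlier results of these data known. Genes named were the 10 clock genes, the 23 of the pathway list, *Sik1* to *Sik3*, and the 5 most like and 5 most unlike *Arntl*, except 2 of the pathway list that are not reported here by name. The labels do not say that each kidney came from its own mouse, so p-values measure the spread between these samples, and floors cover counting error only. No pair of kidneys of the same genotype was a duplicate: chi-square per degree of freedom was 9.06 to 49.5. Pairs across genotypes were not compared in this way.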

Additional observations from a re-analysis of the deposited data

Results flagged for a closer look

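Of 74 groups of 4 kidneys checked (each genotype, for the clock genes, the 19 pathway genes reported, the targeted kinases, 4 genes named in the observations and the activator-to-repressor ratio), 8 held a kidney whose gap to the next was more than 0.829 of the group's range. Chance gives about 1 in 20, or 3.7, if groups are independent. These groups share the same 8 kidneys and hold genes that vary together, so an excess over chance is not shown. *Per1* was at 17.0 CPM in control 4, where the remaining controls had 8.81 to 10.1 CPM. *Cry2*, a CRY repressor, was at 10.6 CPM in the same kidney, against 15.02 to 15.7 CPM, and *Timeless* at 4.03 CPM, against 2.64 to 2.73 CPM.

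Mutant 4, the mutant with the lowest activator-to-repressor ratio, stood apart from the other mutants for 3 genes. *Dbp* was at 76.7 CPM there, against 14.4 to 22.9 CPM. *Tef*, a relative of DBP, was at 199.6 CPM, against 124.6 to 136 CPM, and *Usp2*, a deubiquitinase among the clock outputs, at 91.7 CPM, against 49.8 to 54.1 CPM. *Csnk1e*, a kinase of PER proteins, was at 8.10 CPM in control 2, with the remaining controls at 13.4 to 13.9 CPM, and at 13.9 CPM in mutant 3, with the remaining mutants at 10.9 to 11.4 CPM.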

How the results depend on the processing

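The number of genes at an FDR under 0.05 was 0 with RLE or upper-quartile factors, the ratio as covariate or a mean count of 50 or more, but 71 with DESeq2, 17 with the Y-linked covariate, 279 with the adipocyte covariate, 21 in the 6 kidneys with Y-linked reads, 9 with no filter and 4 and 5 with limma-trend on log2(TPM + 1) and log2(TPM + 0.1), and 0 to 1 when each kidney was left out. *Sik3* passed with DESeq2 (-0.67) and the adipocyte covariate (-0.71). None of these put a gene of the clock or pathway list past the threshold. The covariates overlap with genotype, and account for 34.3% (Y-linked), 46.7% (adipocyte) and 10.1% (ratio) of the variance of the genotype term. The cause of these moves was not tested.

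Signs of uncalled log2 fold changes turned for many genes, and 1 of 10 clock genes and 9 of 19 pathway genes kept theirs in all alternatives. The values with the opposite sign, on the log2 scale, follow. With the Y-linked covariate these were *Arntl* -0.11, *Npas2* -0.0199, *Per1* 0.00169, *Per3* 0.24, *Nr1d1* 0.0839, *Dbp* 0.0417, *Bhlhe40* 0.38, *Timeless* 0.0735, *Wee1* 0.13, *Csnk1e* 0.12, *Fbxw11* -0.0502 and *Prkaa2* -0.0324. With the activator-to-repressor ratio as covariate these were *Arntl* -0.23, *Per2* 0.0617, *Per3* 0.14, *Nr1d1* 0.19, *Dbp* 0.18, *Bhlhe40* 0.0554, *Tef* 0.0938, *Usp2* 0.0241 and *Csnk1e* 0.0190. With the adipocyte covariate these were *Ciart* -0.59, *Nr1d2* -0.0629, *Tef* 0.00495, *Usp2* 0.18 and *Fbxl21* 0.38. In the 6 kidneys with Y-linked reads these were *Arntl* -0.0770, *Per1* 0.0305, *Per3* 0.20, *Nr1d1* 0.0721, *Dbp* 0.00172, *Bhlhe40* 0.36, *Timeless* 0.0996, *Wee1* 0.12, *Csnk1e* 0.13, *Fbxw11* -0.0374 and *Prkaa2* -0.0157. With limma-trend on log2(TPM + 0.1) these were *Nr1d1* 0.0416, *Bhlhe40* 0.0483, *Timeless* 0.42, *Tef* 0.0849, *Usp2* 0.20 and *Wee1* 0.0122. With limma-trend on log2(TPM + 1) these were *Nr1d1* 0.0403, *Bhlhe40* 0.0434, *Timeless* 0.27, *Tef* 0.0825, *Usp2* 0.20 and *Wee1* 0.00422. With a mean count of 50 or more it was *Nr1d2* -0.00118. With upper-quartile factors these were *Ciart* -0.000868 and *Nr1d2* -0.0117. Leaving out each kidney gave *Nr1d1* -0.23 to 0.13, *Tef* -0.19 to 0.0843, *Arntl* -0.0473 to 0.33, *Per1* -0.55 to 0.0684, *Usp2* -0.34 to 0.15, *Timeless* -0.39 to 0.0728, *Cry1* -0.32 to 0.20, *Ciart* -0.73 to 0.43, *Nr1d2* -0.14 to 0.0853, *Csnk1e* -0.21 to 0.0112, *Per2* -0.52 to 0.00407, *Per3* -0.54 to 0.17, *Dbp* -1.18 to 0.0791, *Bhlhe40* -0.26 to 0.15 and *Wee1* -0.20 to 0.0479.

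Same-numbered control and mutant kidneys did not deviate together (correlations of -0.137, 0.057, 0.025 and -0.253). The controls differed among themselves in Y-linked reads, which all mutants had, and this difference could hide a shared deviation. Whether the numbers pair the kidneys therefore cannot be decided from these correlations. With the replicate block, 0 genes passed, with 657 at an unadjusted p under 0.05, and *Ciart* was at -0.048. The difference in the activator-to-repressor ratio was positive in all 13 alternatives (0.0707 to 0.717). Depth limits *Ciart*, at 4 to 35 counts, and *Cry1*, at 17 to 51, most.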

Other observations

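Gene groups that share regulators with *Per1*, or that move with feeding, were read in the same edgeR fit, and 0 of their genes passed an FDR under 0.05. Of 7 glucocorticoid-responsive genes, 6 were tested and 5 had higher means in mutants, with a median log2 fold change of 0.40 against -0.0038 for all genes. At an unadjusted p under 0.05, 3 were higher, where 2.76% of all genes were. They are named after their values were seen. *Errfi1*, a feedback inhibitor of EGF receptor signalling, was at 287, 297, 209 and 252 CPM in controls and 315, 363, 461 and 450 CPM in mutants, with no overlap (log2 fold change 0.61 ± 0.156, edgeR FDR = 0.488, DESeq2 FDR = 0.0494). *Cdkn1a*, the cell cycle inhibitor p21, was at 6.16 ± 0.366 CPM in controls and 9.15 ± 1.63 CPM in mutants (SD, n = 4 each), again with no overlap (edgeR FDR = 0.509). These were 2 of the 6 genes tested, where 4.03% of all genes had groups that did not overlap. *Fkbp5*, a cochaperone of the glucocorticoid receptor, was at 40.3, 40.5, 25.5 and 15.6 CPM in controls and 39.5, 58.3, 54.0 and 61.7 CPM in mutants (edgeR FDR = 0.702). The log2 fold change of *Fkbp5* was 0.81 ± 0.278 over 8 kidneys and 0.41 ± 0.165 over the 6 with Y-linked reads, and ranged over the alternatives from 0.41 (Y-linked covariate) to 1.32 (adipocyte covariate), with no adjusted p under 0.0744. *Per1*, also responsive to glucocorticoid, was at -0.19 ± 0.325.

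Of 5 fasting-responsive genes, 3 had positive and 2 negative log2 fold changes, and 1 had an unadjusted p under 0.05, where 3.59% of all genes were lower at that p: *Pck1*, the rate-limiting enzyme of gluconeogenesis, was at 1309 ± 415 CPM in controls and 793 ± 278 CPM in mutants (edgeR FDR = 0.722). Of 8 immediate early genes, 6 were tested and 0 had an unadjusted p under 0.05, where 6.36% of all genes did, with a median log2 fold change of 0.36. Mutant 1 stood above the other mutants for *Fos*, at 4.85 CPM against 0.446 to 1.92 CPM, and *Egr1*, at 14.7 CPM against 2.52 to 5.48 CPM. It was also highest for *Nr4a1*, at 8.12 CPM against 3.30 to 3.94 CPM, and *Jun*, at 22.5 CPM against 13.5 to 16.6 CPM. For *Jun* the controls reached 26.3 CPM. *Fosb* and *Atf3*, which did not pass the filter, were highest in mutant 1 among mutants as well. For *Junb* and *Ier2* mutant 4 was the highest mutant. These genes were named after their values were seen.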
